A study of Mus musculus with 27 samples.

Results

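Rosiglitazone, an insulin-sensitising drug of the thiazolidinedione class, was added to mature fat cells in culture, and the state of their RNA after 6 h was set against that of untreated cells from time 0. The comparison takes the 3 arrays labelled as adipocytes with rosiglitazone for 6 h and the 3 labelled as adipocytes alone, 6 of the 27 arrays of the series, and covers all 18781 genes that could be named. The cells were 3T3-L1, an established mouse preadipocyte line, turned into adipocytes with dexamethasone, insulin and 3-isobutyl-1-methylxanthine, and the drug was given at 1 µM in DMSO. The other 21 arrays, 3 for each of 7 further times between 30 min and 48 h, entered the model and its estimate of the spread. Those of 2 h and 12 h served to place 6 h in time, and those of 30 min as an alternative baseline. Every group therefore shared the cell line and the differentiation cocktail, and differed in the drug and in the time of harvest.

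Cells harvested untreated at time 0 served as the sole control: 0 arrays used here were labelled as given DMSO alone, so the drug, its solvent and the hours in culture cannot be told apart. The labels do not say whether the 3 arrays of a group came from separate cultures, so a p-value here rests on array-to-array scatter that could be technical alone. Levels are log2 intensities, on which 1 unit is a doubling of the signal. A change is the mean of the 6 h arrays minus the mean of the untreated arrays, given ± its standard error (SE) with n = 3 arrays a group, and a gene rose or fell where limma's p, adjusted by the Benjamini-Hochberg method over all 18781 genes, was below 0.05.

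PPARγ, the receptor that rosiglitazone binds, is a nuclear receptor that sits on DNA with a partner of the RXR family and drives the genes of fat uptake and storage in adipocytes. Its binding by a ligand recruits coactivators to these genes, while other genes are repressed. Among the genes known to respond in fat cells are those for fatty acid transport, glycerol handling, triglyceride assembly and the coats of lipid droplets.

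By 6 h, 3111 genes had changed, 16.6% of those tested: 1575 rose (8.39%) and 1536 fell (8.18%). The median change over all genes was -0.008, the median size of a change among the genes that passed was 0.35, and the median SE was 0.088. Changes of 1.5-fold or more were found in 385 of the genes that passed (2.05%), 153 higher and 232 lower. Changes of 2-fold or more were found in 37 (0.197%), 11 of them higher and 26 lower. The 3 arrays at 6 h lay all above or all below the 3 untreated arrays for 6090 genes (32.4%), so separated arrays alone do not mark a gene out. The balance of directions depended on scaling: the array medians over genes were 4.68 to 4.72 at 6 h and 4.78 to 4.82 untreated, and after each array was centred on its median 2877 genes rose and 883 fell, 76.5% higher in place of 50.6%. That centring moved the median change by 0.086, and 0 genes passed in the opposite direction. List counts below are to be read beside 8.39% higher and 8.18% lower over all genes. Centred list counts are to be read beside those 2877 and 883 genes, and centred medians beside 0.078 over all genes.

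**Figure D1:**
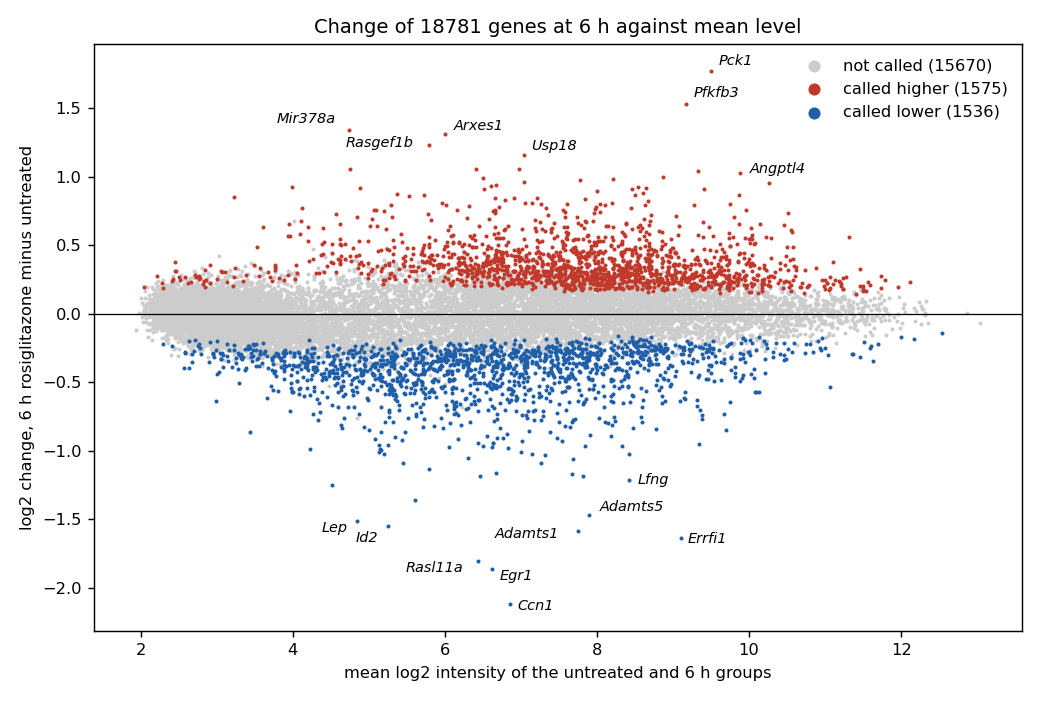
Each point is 1 of 18781 genes, placed by its mean log2 intensity over the untreated and 6 h groups (horizontal) and its log2 change at 6 h (vertical), with genes that rose in red and genes that fell in blue. Pck1, Pfkfb3 and Mir378a lead the increases, and Ccn1, Egr1 and Rasl11a lead the decreases, at -2.12, -1.86 and -1.80.

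The cells carried the markers of mature adipocytes before and after treatment. The 17 such markers measured had array means of 11.17 to 11.21 untreated and 11.28 to 11.39 at 6 h, against a 90th percentile of 8.96 over the means of all genes, a description only, since probe sets differ in brightness. Of these 17 markers, 9 rose, 1 (Pparg) fell and the median change was 0.15. Without 6 h array 3, the number that rose was 5. Markers of the preadipocytes and fibroblasts from which the cells came went the other way more often: of 23 measured, 6 fell, led by Sox9 (-0.95 ± 0.093), Prrx1 (-0.77 ± 0.082) and Pdgfra (-0.76 ± 0.11), all transcription factors or receptors of mesenchymal precursors. The 2 increases, Mest and Twist2, were both lost without 6 h array 2 or untreated array 1 or 3, and 1 of them without 6 h array 1 or 3 or untreated array 2. In a bulk culture, fewer cells of a type and less RNA per cell cannot be told apart, and the part of this shift in the results below was not tested. Other cell types gave little: the 12 macrophage markers had array means of 3.50 to 3.52 untreated and 3.38 to 3.44 at 6 h, with Ptprc, Adgre1 and Csf1r not called. Cd14 (-0.73 ± 0.22) and Cd68 (-0.40 ± 0.11) fell, but neither passed without 6 h array 3 and only 1 of the 2 without 6 h array 1 or untreated array 1, 2 or 3. The 10 endothelial markers lay at 3.34 to 3.44 untreated and 3.35 to 3.41 at 6 h, with Flt1 alone lower (-0.56 ± 0.088), and 0 of 6 lymphocyte markers passed.

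Many, though not all, of the listed PPARγ targets in lipid handling rose. Of 33 measured, 22 rose, 1 fell and 10 did not pass, with a median change of 0.27 against -0.008 over all genes. The strongest was Pck1, the phosphoenolpyruvate carboxykinase that makes glycerol backbone from small precursors in fat cells. Its levels were 8.43, 8.78 and 8.64 on the untreated arrays and 10.23, 10.50 and 10.45 at 6 h. The groups were far apart, with a change of 1.78 ± 0.11 (3.42-fold, limma adjusted p = 1.3e-10). Angptl4, whose protein leaves the cell and inhibits lipoprotein lipase, went from 9.28, 9.40 and 9.43 to 10.45, 10.31 and 10.45, without overlap (1.03 ± 0.073, adjusted p = 5.3e-10). Aqp7, the channel through which glycerol crosses the adipocyte membrane, stood at 10.18, 10.18 and 10.06 before and at 10.78, 10.92 and 10.93 after 6 h, a clear separation of 0.74 ± 0.074 (adjusted p = 1.71e-07). Arxes1 and Arxes2, a near-identical pair on the X chromosome whose probes may share signal, rose by 1.31 ± 0.15 and 0.90 ± 0.11. Olr1, a receptor for oxidised lipoprotein, rose by 1.06 ± 0.22.

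Genes of fatty acid uptake rose by smaller amounts. The fatty acid transporter Cd36 stood at 11.03, 10.89 and 10.89 untreated and at 11.07, 11.17 and 11.36 at 6 h, so that the lowest treated array lay only just above the highest untreated one (0.27 ± 0.081, adjusted p = 0.0227). Fabp4, the fatty acid binding protein of adipocytes, rose by 0.23 ± 0.062 and its relative Fabp5 by 0.33 ± 0.061. Adipoq (0.12), Lpl (0.055) and Plin1 (-0.008) did not pass. The call for Cd36 was lost without 6 h array 3 or untreated array 2 or 3, and that for Fabp4 without 6 h array 3.

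**Figure D2:**
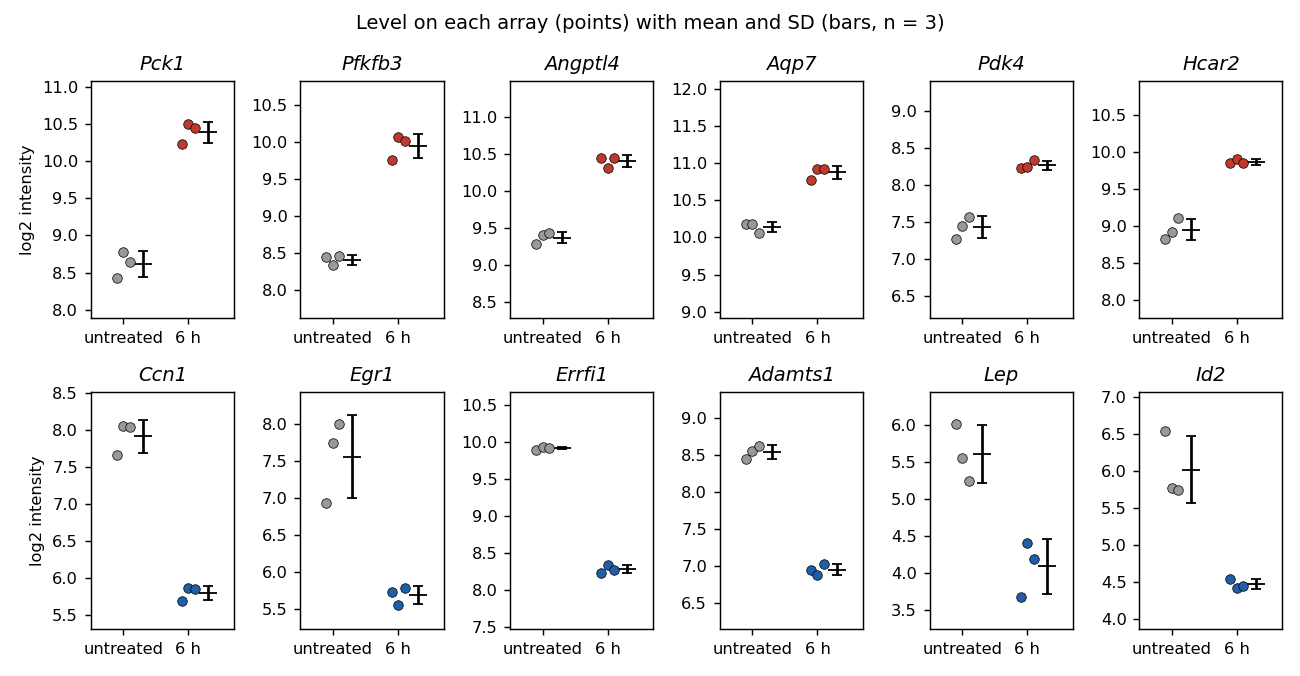
Log2 intensity of 12 genes on each of the 3 untreated and 3 6 h arrays (points), with mean and SD as bars and the same span of 3.2 units on every axis. In all 12 panels the arrays of the 2 groups do not overlap; Egr1, Lep and Id2 scatter most among untreated arrays.

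Transcripts for several steps from glycerol phosphate to stored triglyceride rose. Of 26 genes of glyceroneogenesis, triglyceride synthesis and lipid droplets measured, 13 rose and 1 fell (median 0.20). The first acylation is made by glycerol-3-phosphate acyltransferases, and Gpat3 went from 9.39, 9.55 and 9.67 to 10.16, 10.18 and 10.25 (0.66 ± 0.090, adjusted p = 9.24e-06), with Gpat4 up by 0.57 ± 0.086 and Gpam by 0.21 ± 0.061. Agpat2, which adds the next acyl chain, went from 10.96, 11.10 and 11.05 to 11.53, 11.58 and 11.68 (0.56 ± 0.070, adjusted p = 2.92e-06). Lpin1, the phosphatase that follows, rose by 0.25 ± 0.059, and Dgat1, which completes the triglyceride, by 0.33 ± 0.055. Dgat2 (-0.057), which makes the same bond, did not pass. On the droplet surface, Plin4 rose by 0.35 ± 0.063 and Cidec, a droplet fusion protein, by 0.19 ± 0.057, while Plin3 fell (-0.32 ± 0.091) and Plin2 (0.11) did not pass. Leaving out 1 array ended the calls for Gpam (6 h array 2, untreated array 2 or 3), Cidec (6 h array 2 or 3, untreated array 3) and Plin3 (6 h array 3, untreated array 2).

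Transcripts of lipolytic enzymes and of their brakes were both higher. Of 15 genes measured, 6 rose and 0 fell (median 0.21), and 10 rose after centring. The brake with the largest change was Hcar2, the receptor for niacin and ketone bodies that restrains fat breakdown. It read 8.82, 8.92 and 9.10 untreated and 9.84, 9.90 and 9.84 at 6 h, with no overlap (0.91 ± 0.075, adjusted p = 7.06e-09). Its neighbour Hcar1, a lactate receptor with the same effect, rose by 0.44 ± 0.086, and G0s2, an inhibitor of adipose triglyceride lipase, by 0.40 ± 0.068. Hilpda, another inhibitor of that lipase, rose by 0.54 ± 0.093. The lipases themselves rose by less, Pnpla2 by 0.21 ± 0.052 and Lipe by 0.15 ± 0.049. The call for Lipe was lost without 6 h array 2 or 3 or untreated array 2 or 3. Hcar1 and Hcar2 are similar in sequence, and how far their probes share signal was not tested.

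Some transcripts of fatty acid oxidation in mitochondria and peroxisomes rose. Of 19 mitochondrial genes, 7 rose and 0 fell (median 0.15), 11 rose after centring, and without 6 h array 3 the number was 4. Slc25a20, the carrier that takes acylcarnitines into mitochondria, led with 7.42, 7.60 and 7.77 untreated against 8.17, 8.49 and 8.34 (0.73 ± 0.11, adjusted p = 2.6e-05). Both subunits of the trifunctional protein rose, Hadhb by 0.35 ± 0.073 and Hadha by 0.19 ± 0.065, while the entry enzyme Cpt1a (-0.11) did not pass. The call for Hadha was lost without 6 h array 2 or 3 or untreated array 1 or 3. Of 20 peroxisomal genes, 7 rose and 2 fell (median 0.090), beside 8.39% higher and 8.18% lower over all genes. Hsd17b4, of the peroxisomal oxidation cycle, rose by 0.48 ± 0.072, and Pex19 and Pex16, which insert proteins into the peroxisome membrane, by 0.43 ± 0.069 and 0.39 ± 0.083. The peroxisomal importer Abcd2 fell (-0.79 ± 0.13), and Acox2 (-0.31 ± 0.10) fell too, a call that stood only without 6 h array 1, so that leaving out any of the other 5 arrays left 1 of the 2 decreases.

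Counts of respiration genes that passed at 6 h lay near or under the shares of all genes, 8.39% higher and 8.18% lower. Those near the shares carry no result about the members. Of 33 subunits of oxidative phosphorylation, 2 rose and 0 fell, and 0 passed without 6 h array 2 or 3 or any 1 untreated array. Of 35 genes of the tricarboxylic acid cycle and branched-chain amino acid breakdown, 3 rose and 2 fell. Idh3a, a subunit of isocitrate dehydrogenase, stood out from them with 10.22, 10.28 and 10.22 untreated and 10.74, 10.90 and 10.92 at 6 h (0.61 ± 0.074, adjusted p = 1.72e-06). The decreases, Ivd and Idh1, were both lost after centring, which gave 7 risers, and without 6 h array 1, and Ivd also without 6 h array 3 or untreated array 1 or 2. Outside these lists, Ndufaf4, needed to build complex I, rose by 0.96 ± 0.090. Chchd4, which oxidises proteins entering the mitochondrial intermembrane space, rose by 0.93 ± 0.098 on its brighter probe set and by 0.38 on the other. Of 22 thermogenic genes, 3 rose and 2 fell, counts that carry no result beside 8.39% and 8.18% over all genes. Ucp1, the uncoupling protein of brown fat, changed by 0.099 and did not pass, and Elovl3, an elongase of brown fat, rose by 0.87 ± 0.24 (adjusted p = 0.012), a call lost without untreated array 1 or untreated array 2.

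In glucose use, the largest changes named here were at control points and a carrier. Of 30 genes measured, 7 rose and 1 fell (median 0.081), and after centring 11 rose and 1 fell. Pfkfb3, which makes the activator of phosphofructokinase, had levels of 8.45, 8.34 and 8.46 untreated and 9.76, 10.07 and 10.01 at 6 h (1.53 ± 0.10, 2.89-fold, adjusted p = 2.35e-10). Slc16a1, a lactate and pyruvate carrier, went from 8.12, 8.03 and 8.08 to 9.08, 8.93 and 9.0 (0.92 ± 0.079, adjusted p = 1.46e-08). At the pyruvate dehydrogenase gate, the kinases that close it rose, Pdk4 by 0.84 ± 0.11 and Pdk2 by 0.30 ± 0.074, a call lost with the 30 min arrays as baseline. Pdp1, the phosphatase that opens it, fell from 8.18, 7.97 and 7.88 to 6.98, 7.03 and 7.23 (-0.93 ± 0.12, adjusted p = 3.03e-06). The complex itself rose slightly, Pdhb by 0.27 ± 0.066 and Dlat by 0.26 ± 0.063. The glucose transporter Slc2a4 (-0.049) and the glycolytic enzymes Hk2 (0.14), Aldoa (0.088), Gapdh (0.005) and Pkm (0.13) did not pass.

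Some transcripts of fatty acid synthesis and of cholesterol synthesis were lower. Of 20 genes of de novo lipogenesis, 1 rose (Elovl3) and 9 fell (median -0.17). Elovl6, which extends palmitate, fell furthest, from 7.38, 7.73 and 7.85 to 6.61, 6.76 and 6.54 (-1.02 ± 0.12, adjusted p = 1.28e-06). Aacs, acetoacetyl-CoA synthetase, fell by 0.85 ± 0.093 on the log2 scale, and the suppliers of acetyl-CoA, Acly and Acss2, changed by -0.46 ± 0.056 and -0.44 ± 0.072. The transcription factors of the pathway were lower too, Mlxipl by -0.37 ± 0.067 and Srebf1 by -0.23 ± 0.061. The call for Srebf1 was lost without 6 h array 1 or untreated array 2. The core enzymes Fasn (-0.076), Acaca (-0.037) and Scd1 (-0.067) did not pass. Of 21 genes of cholesterol synthesis and uptake, 12 fell and 2 rose (median -0.26), and the number that fell was 7 without 6 h array 1 or without untreated array 3. Centring also gave 7 that fell, with 2 that rose (median -0.17). Cyp51, a demethylase of the sterol ring, went from 9.17, 9.19 and 9.17 to 8.39, 8.55 and 8.65 (-0.65 ± 0.079, adjusted p = 1.91e-06), and Pmvk (-0.64 ± 0.071) and Sqle (-0.43 ± 0.066) followed. The exceptions were Hmgcs1 (0.36 ± 0.089) and Insig1 (0.19 ± 0.053), and Insig1 did not pass without 6 h array 2 or 3 or untreated array 2 or 3.

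Among the receptors and their cofactors, the level of PPARγ mRNA itself was lower. Pparg read 11.49, 11.52 and 11.51 untreated and 11.14, 11.22 and 11.27 at 6 h, without overlap (-0.29 ± 0.049, adjusted p = 0.000118). Of 33 nuclear receptors and coregulators, 3 rose and 9 fell, and the number that fell was 5 without 6 h array 3 or without untreated array 2. The median was -0.047. After centring, 6 were higher and 5 lower, with a median of 0.040 against 0.078 over all genes. Over all genes, centring gave 2877 higher and 883 lower. Rxrg, a possible partner of PPARγ, rose from 6.98, 6.94 and 6.92 to 7.55, 7.91 and 7.71 (0.78 ± 0.11, adjusted p = 9.57e-06), while Rxra (-0.21) did not pass. The coactivator Ppargc1b rose by 0.88 ± 0.085 (adjusted p = 9.07e-08), and its relative Ppargc1a (0.28) did not pass. The retinoic acid receptor Rara fell (-0.60 ± 0.071), as did the vitamin D receptor Vdr (-0.53 ± 0.13) and the orphan receptor Nr4a1 (-0.97 ± 0.20). Vdr did not pass without 6 h array 3.

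The wider network of adipocyte transcription factors split. Of 28 measured, 4 rose and 9 fell (median -0.15). Cebpa, which works beside PPARγ in mature fat cells, rose from 9.83, 9.70 and 9.67 to 10.14, 10.15 and 10.13 (0.41 ± 0.075, adjusted p = 0.000313), and Tle3, a cofactor that favours fat storage, rose by 0.53 ± 0.059. Cebpb (0.22) did not pass. The Krüppel-like factors Klf6 (-1.09 ± 0.11), Klf4 (-0.92 ± 0.15), Klf15 (-0.48 ± 0.070) and Klf3 (-0.43 ± 0.078) fell.

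**Figure D3:**
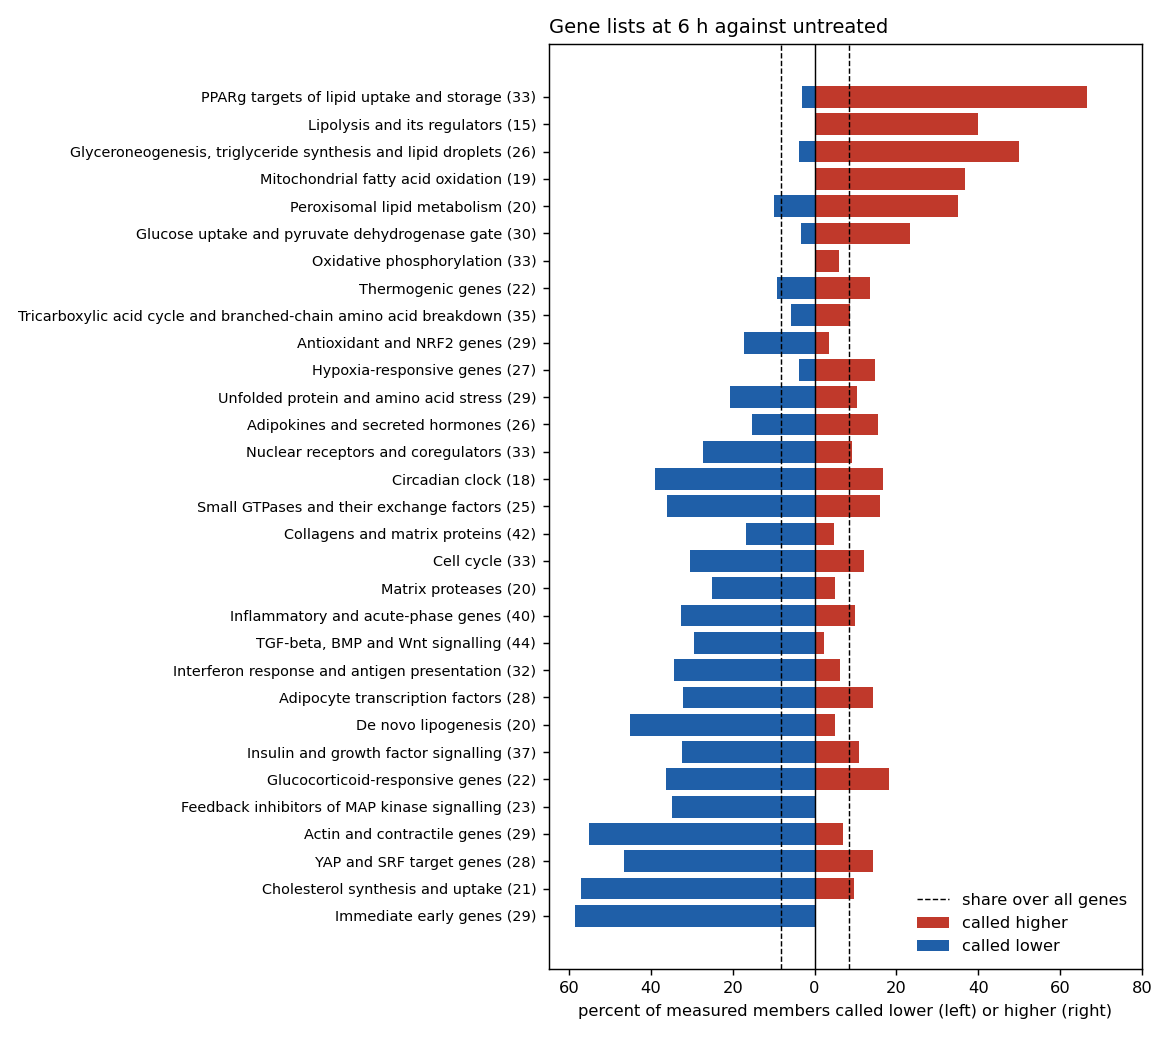
Share of the measured members of 31 gene lists that rose (red, right) or fell (blue, left) at 6 h, in percent, ordered by median change with the number measured in brackets; dashed lines mark the 8.39% and 8.18% of all genes. Lists of lipid uptake, storage and breakdown lean to the right, and immediate early, actin, cholesterol and YAP and SRF lists to the left.

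Immediate early genes, which answer growth signals within minutes, were lower at 6 h. Of 29 measured, 17 fell and 0 rose (median -0.37). Egr1, a zinc finger factor, read 6.93, 7.74 and 8.0 untreated, a wide scatter, and 5.73, 5.55 and 5.79 at 6 h. All treated arrays lay below all untreated ones (-1.86 ± 0.30, 3.64-fold, adjusted p = 8.79e-05). Egr2 (-0.96 ± 0.21), Atf3 (-0.92 ± 0.12), Junb (-0.75 ± 0.17), Jund (-0.74 ± 0.091) and Jun (-0.40 ± 0.073) fell, and Fos (-0.020) did not pass. The feedback inhibitors that growth factor signals induce went the same way, with 8 of 23 lower and 0 higher (median -0.25). Errfi1, an inhibitor of the EGF receptor, was very even among arrays, at 9.90, 9.93 and 9.92 untreated and 8.23, 8.34 and 8.28 at 6 h (-1.63 ± 0.095, adjusted p = 2.79e-11). Dusp6, the phosphatase of ERK, went from 5.50, 5.73 and 5.90 to 4.60, 4.82 and 4.65 (-1.03 ± 0.17, adjusted p = 0.000116).

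Genes that YAP with TEAD, or SRF, are known to drive had a similar lean, with 13 of 28 lower and 4 higher (median -0.26). Ccn1, a secreted matrix protein and standard YAP target, had the largest fall of all genes named here. It read 7.66, 8.05 and 8.04 untreated and 5.69, 5.86 and 5.85 at 6 h, far below (-2.12 ± 0.25, 4.34-fold, adjusted p = 1.1e-06). Its relative Ccn2 (-0.27) and Ankrd1 (0.068), 2 further standard targets, did not pass. The 4 increases were Amotl2 (0.60 ± 0.069), Wwtr1 (0.50 ± 0.078), Tead1 (0.44 ± 0.068) and Vcl (0.28 ± 0.056), among which Wwtr1 encodes TAZ, the partner protein of YAP, and Tead1 a factor that YAP binds. Tead2 (-0.47 ± 0.092) and Tead4 (-0.27 ± 0.084) fell. Amotl2 did not pass with the 30 min arrays as baseline. Filip1l fell by 0.36 on its brighter probe set, and the other changed by 0.018. The call for Filip1l was lost without 6 h array 2 or 3 or untreated array 3, and that for Tead4 without 6 h array 3 or untreated array 2 or 3.

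Genes of the actin cytoskeleton were lower in many cases, with 16 of 29 down and 2 up (median -0.26). After centring, 10 were down and 2 up (median -0.17). Zyx, zyxin of focal adhesions, went from 8.28, 8.41 and 8.36 to 7.59, 7.53 and 7.28 (-0.88 ± 0.083, adjusted p = 7.52e-08). Acta2, smooth muscle actin, went from 10.02, 10.06 and 10.14 to 9.39, 9.50 and 9.39 (-0.64 ± 0.12, adjusted p = 0.000462), and the myosin light chain Myl9 fell by 0.82 ± 0.19. Calponins and caldesmon, which bind actin, fell as well (Cnn2 -0.65 ± 0.12, Cnn3 -0.45 ± 0.076, Cald1 -0.54 ± 0.074). The cytoplasmic actins Actg1 (-0.31 ± 0.055) and Actb (-0.18 ± 0.050, a call lost after centring) were lower, and the nonmuscle myosin Myh10 (0.47 ± 0.066) and vinculin, Vcl, were higher. Of 8 smooth muscle markers, 3 fell, Acta2, Actg2 and Smtn, while Myh11 (-0.10) and Cnn1 (-0.027) did not pass, and Actg2 passed only without 6 h array 1 among the models without 1 array. The members overlap with the SRF list above and are not independent of it.

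This block was not yet visible at 2 h. Against untreated, 1 of the 29 genes was higher and 0 were lower at 2 h, with a median of -0.007, beside 3.04% higher and 2.87% lower over all genes. The direct contrast of 6 h with 2 h, which leaves the untreated arrays out of the difference, gave 14 lower and 0 higher, with a median of -0.31, while over all genes 4.89% were lower and 4.27% higher in that contrast. The number of the 29 lower in that contrast was 10 without 6 h array 1 and 11 without 2 h array 1 or 2. It was 12 without 6 h array 2 or 3 or 2 h array 3. Zyx was 0.16 below untreated at 2 h and 0.88 below at 6 h, and Acta2 went on falling, by 0.89 ± 0.12 between 6 h and 12 h (adjusted p = 0.000399).

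**Figure D4:**
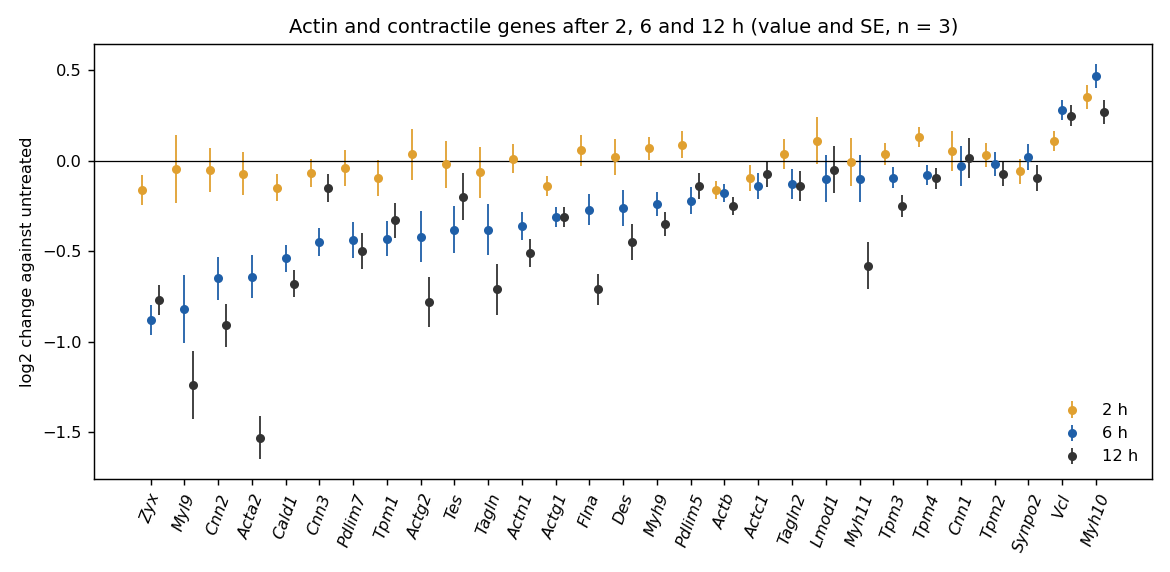
Log2 change against untreated of the 29 actin and contractile genes after 2 h (orange), 6 h (blue) and 12 h (black), with SE from the model (n = 3 arrays). Most members lie near 0 at 2 h and below it at 6 h, and Acta2 falls furthest by 12 h; the 3 times share the untreated arrays.

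Promoters of Ccn1, Acta2, Myl9 and Aqp7 are shown so that the sequence can be seen beside the change, and they were picked because they hold a searched element. The 250 bases before the start are given from RefSeq (GRCm38.p6, 5′ to 3′ on the gene's strand), with the element in capitals, and CATTCC or TGACCT is the motif read on the other strand. In Ccn1 (chr3:145649986-145650235, minus strand), GGAATG, the element of TEAD factors, lies 103 bases before the start. In Acta2 (chr19:34255374-34255623, minus strand) it lies 146 bases before it. In Myl9 (chr2:156775214-156775463, plus strand) the SRF element called CArG lies 161 bases before the start. Only exact matches were marked, so near matches to CArG, such as ccctatatgg in the Acta2 window, are not in capitals. For contrast, the riser Aqp7 (chr4:41047963-41048212, minus strand) has AGGTCA, the half-site read by nuclear receptors, 223 and 101 bases before the start of its second listed promoter.
Ccn1: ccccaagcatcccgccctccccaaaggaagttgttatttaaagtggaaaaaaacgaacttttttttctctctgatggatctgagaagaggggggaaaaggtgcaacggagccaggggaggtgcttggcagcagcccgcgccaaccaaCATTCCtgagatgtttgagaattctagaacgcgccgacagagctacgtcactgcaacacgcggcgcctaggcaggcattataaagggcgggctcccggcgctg
Acta2: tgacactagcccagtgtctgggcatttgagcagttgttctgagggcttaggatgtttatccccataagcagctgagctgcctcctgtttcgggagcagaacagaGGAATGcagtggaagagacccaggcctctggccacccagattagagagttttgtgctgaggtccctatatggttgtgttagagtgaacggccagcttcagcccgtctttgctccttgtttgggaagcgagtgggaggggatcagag
Myl9: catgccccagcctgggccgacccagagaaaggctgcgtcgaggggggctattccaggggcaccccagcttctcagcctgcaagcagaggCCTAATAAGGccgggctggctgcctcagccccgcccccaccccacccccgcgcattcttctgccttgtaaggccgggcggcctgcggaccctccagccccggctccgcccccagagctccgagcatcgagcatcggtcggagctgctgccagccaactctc
Aqp7: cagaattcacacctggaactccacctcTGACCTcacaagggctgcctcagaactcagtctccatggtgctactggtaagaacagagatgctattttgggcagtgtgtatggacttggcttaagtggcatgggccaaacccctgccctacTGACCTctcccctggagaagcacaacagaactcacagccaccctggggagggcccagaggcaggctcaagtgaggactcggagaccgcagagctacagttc

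Of the genes tested, 14723 had such a window, with 1.23 promoters each on average. Both strands were searched for exact matches only, so the shares leave out elements that vary from the motif. GGAATG was in 13.3% of all genes, 10.8% of those that rose, 16% of those that fell, 13 of 24 genes of the YAP and SRF list (54.2%) and 8 of 25 actin genes (32%). CArG was in 1.47% of all genes, 0.842% of those that rose, 2.37% of those that fell, 5 of 24 of the YAP and SRF list (20.8%) and 5 of 25 of the actin list (20%). AGGTCA was in 14.4% of all genes, 12.3% of the genes that rose, 13.7% of those that fell and 7 of 24 PPARγ targets (29.2%). The full PPAR element known as DR1 was in 7 of 14723 genes and in 0 that changed. So few exact matches cannot show whether the genes that changed hold or lack PPAR elements. Sequence outside the window was not searched. TGACGTCA, the cyclic AMP element, was in 2.39% of all genes and in 3 of 24 immediate early genes. These shares carry no test, and lists named for a factor were drawn up with its known targets in view. GGAATG may occur within longer elements, and AGGTCA is part of DR1.

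Transcripts of matrix proteases and of matrix proteins were counted as separate lists. Of 20 proteases, 5 fell and 1 rose, with 3 in each direction after centring, and without 6 h array 2 or 3 or untreated array 1 or 2 the number that fell was 3. Adamts1, an aggrecan- and versican-cleaving protease, read 8.44, 8.55 and 8.62 untreated and 6.95, 6.87 and 7.03 at 6 h, with little scatter (-1.59 ± 0.11, 3.00-fold, adjusted p = 5.3e-10). Adamts5, of the same family, went from 8.70, 8.62 and 8.58 to 7.11, 7.17 and 7.21 (-1.47 ± 0.093, adjusted p = 1.3e-10), and Mmp14 fell by 0.42 ± 0.060. Adam12 rose (0.76 ± 0.12). Of 42 collagens and matrix proteins, 7 fell and 2 rose, beside 8.18% lower and 8.39% higher over all genes. Without 6 h array 2, the number that fell was 4. Pcolce2, an enhancer of procollagen processing, fell furthest (-0.96 ± 0.12), while Col1a1 (-0.12), Col3a1 (-0.19), Col6a1 (0.074) and Fn1 (-0.014) did not pass.

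Genes of TGF-β, BMP, Notch and Wnt signalling were lower in part, with 13 of 44 genes down and 1 up (median -0.14), and 8 down without 6 h array 3. Id2, an inhibitor of helix-loop-helix factors that BMP signals induce, read 6.54, 5.77 and 5.75 untreated, with array 1 well above the other two, and 4.55, 4.42 and 4.45 at 6 h (-1.55 ± 0.27, adjusted p = 0.000173). Id1 (-0.46 ± 0.076) and Id3 (-0.43 ± 0.12) fell with it. Smad7 (-0.71 ± 0.16), the feedback inhibitor of TGF-β, Hes1 (-0.70 ± 0.094), a Notch target, and Lef1 (-0.62 ± 0.098) and Sfrp2 (-0.86 ± 0.14) of the Wnt pathway were lower, and the Wnt receptor Fzd5 was higher (0.52 ± 0.083). With the 30 min arrays as baseline, Fzd5 did not pass and its direction turned (-0.063). After centring, 9 of the list were down and 4 up. Id3 did not pass without untreated array 1. Lfng, which adds sugar to Notch receptors, went from 8.95, 9.06 and 9.05 to 7.76, 7.94 and 7.73 (-1.21 ± 0.081, adjusted p = 2.32e-10).

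Inflammatory and acute-phase genes leaned down, with 13 of 40 lower and 4 higher (median -0.14). The pattern receptors Tlr4 (-0.94 ± 0.14) and Tlr2 (-0.78 ± 0.15) fell, as did the adhesion molecule Vcam1 (-0.79 ± 0.10), the macrophage growth factor Csf1 (-0.80 ± 0.10) and the chemokine Ccl2 (-0.59 ± 0.16). Tlr4 had levels of 7.22, 7.01 and 7.06 before and 6.09, 6.07 and 6.30 after, clearly apart (adjusted p = 3.04e-05). Tnfaip3, a brake on NF-κB, rose (0.48 ± 0.11), and Il6 (-0.091), Tnf (0.071) and Saa3 (0.12) did not pass. Haptoglobin, Hp, was lower by -0.28 ± 0.088, a call lost without each of the 6 arrays in turn, and Ccl2 did not pass without untreated array 3. The macrophage markers that moved with these genes, Cd14 and Cd68, are given above, and their part was not tested.

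Interferon and antigen presentation genes were lower in 11 of 32 cases and higher in 2 (median -0.14), and after centring in 6 and 3 (median -0.051). Ifit3 (-0.85 ± 0.17), Tap1 (-0.65 ± 0.15) and Ifih1 (-0.61 ± 0.11) fell. Usp18, which removes the ubiquitin-like ISG15 from proteins, went against them, from 6.33, 6.51 and 6.53 to 7.48, 7.69 and 7.68 (1.16 ± 0.13, adjusted p = 1.01e-06). The other increase, Rtp4 (0.34 ± 0.11), was lost without 6 h array 2 or 3 or untreated array 1 or 3.

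Both carriers and inhibitors of insulin signalling changed. Of 37 genes of insulin and growth factor signalling, 4 rose and 12 fell (median -0.18), and after centring 7 rose and 9 fell. Irs2, which carries the signal from the insulin receptor, rose from 7.94, 8.16 and 8.05 to 8.66, 8.80 and 8.67 (0.66 ± 0.077, adjusted p = 9.4e-07), and the receptor Insr rose by 0.34 ± 0.096. The decreases included inhibitors: Grb14, which binds the active insulin receptor, went from 5.71, 5.64 and 5.78 to 4.86, 4.88 and 5.02 (-0.79 ± 0.11, adjusted p = 1.84e-05). Socs2 (-0.62 ± 0.073), Cish (-0.46 ± 0.10) and the pseudokinase Trib3 (-0.63 ± 0.099) were lower, and so were Igf1 (-0.29 ± 0.074) and its receptor Igf1r (-0.40 ± 0.090). Socs3 fell by 0.59 on its brighter probe set, while the other changed by -0.093. Irs1 (-0.18) and Akt2 (0.12) did not pass. The calls for Insr and Socs3 were lost without 6 h array 3 or untreated array 2, and that for Igf1 with the 30 min arrays as baseline.

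Of 26 hormones and factors that adipocytes secrete, 4 rose and 4 fell, beside 8.39% higher and 8.18% lower over all genes. Lep, the satiety hormone leptin, scattered widely, at 6.02, 5.55 and 5.25 untreated and 3.68, 4.41 and 4.19 at 6 h, yet the groups stayed apart (-1.52 ± 0.24, 2.86-fold, adjusted p = 5.66e-05). Fgf10, a growth factor of fat development, rose (0.78 ± 0.082), as did Nrg4 (0.53 ± 0.095) and apelin, Apln (0.36 ± 0.065). Angpt1, a vessel-stabilising ligand, fell (-0.79 ± 0.13).

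The clock genes changed in both directions. Of 18 measured, 3 rose and 7 fell, with a median of -0.075 that became 0.011 after centring. The increases were Clock (0.41 ± 0.10), Npas2 (0.41 ± 0.11) and Arntl (0.36 ± 0.078), which form the activating arm. The period genes of the repressing arm fell, with Per3 going from 7.62, 7.52 and 7.35 to 6.47, 6.42 and 6.57 (-1.01 ± 0.10, adjusted p = 1.6e-07), Per2 lower by -0.67 ± 0.094 and Per1 by -0.51 ± 0.12. Nr1d2 fell on its brighter probe set (-0.71 ± 0.12), and the other gave 0.054. Npas2 did not pass without 6 h array 2 or untreated array 1. The untreated arrays were taken at time 0, so the hour of harvest moves with the drug here and cannot be told apart from it. Of 22 genes known to answer glucocorticoids, such as the dexamethasone of the differentiation cocktail, 4 rose and 8 fell (median -0.20). Fkbp5 went from 6.83, 6.93 and 6.93 to 6.23, 6.43 and 6.17 (-0.62 ± 0.094, adjusted p = 3.2e-05), and Mt2 (-0.54 ± 0.082), Klf15 and Sgk1 (-0.45 ± 0.084) were lower. Tsc22d3 (-0.18), a standard target, did not pass, and the increases were Angptl4, Pdk4, Irs2 and Zbtb16.

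Growth and stress genes gave a mixed account. In the cell cycle list, 10 of 33 fell and 4 rose (median -0.12), with lower Ccnd1 (-0.55 ± 0.10), Gadd45b (-0.63 ± 0.14) and Cdkn1b (-0.45 ± 0.061) and higher Gadd45g (0.87 ± 0.11) and Cdk2 (0.41 ± 0.072). Mcm2 (-0.053) and Pcna (-0.20), of DNA replication, did not pass. Among 25 small GTPases and their exchange factors, 9 fell and 4 rose. Rasl11a, a Ras-like protein of the nucleolus, went from 7.29, 7.29 and 7.41 to 5.63, 5.63 and 5.33 (-1.80 ± 0.10, 3.48-fold, adjusted p = 2.79e-11). Rasgef1b, a Ras exchange factor, went from 5.03, 5.23 and 5.24 to 6.33, 6.44 and 6.43 (1.23 ± 0.094, adjusted p = 2.26e-09). Rapgef3 fell by 0.34 on its brighter probe set, with -0.037 on the other, and its call was lost without 6 h array 1 or untreated array 1.

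In the stress lists, several counts lay near the shares of all genes, 8.39% higher and 8.18% lower, and carry no result about the members. Of 29 genes that answer unfolded proteins or amino acid shortage, 6 fell and 3 rose, and 1 rose without 6 h array 2 or untreated array 1 or 3. Centring gave 6 higher and 5 lower, beside 2877 higher and 883 lower over all genes. A further quantile normalization gave 1 higher and 7 lower. The chaperone Dnajb9 rose (0.65 ± 0.074), while Hspa5 (-0.042) and Asns (0.071) did not pass. Of 27 hypoxia-responsive genes, 4 rose and 1 fell, with 2 risers left without untreated array 3. Pfkfb3 and Hilpda, which other lists hold too, were among them, and Ndrg1 fell (-0.81 ± 0.14). Of 29 antioxidant genes, 5 fell and 1 rose, with 3 lower without 6 h array 2 or 3 or untreated array 1, and after centring 1 fell and 2 rose. Ephx2, a lipid epoxide hydrolase, was the riser (0.63 ± 0.062), and the NRF2 target Nqo1 fell (-0.36 ± 0.11). Among 13 reference genes used to normalise such data, Tfrc (0.81 ± 0.15), Hprt (0.42 ± 0.077) and Tbp (0.21 ± 0.068) rose and Actb fell, while Gapdh did not pass. The calls for Nqo1 (without 6 h array 2 or 3 or untreated array 1 or 3) and Tbp (without 6 h array 2 or 3 or untreated array 2 or 3) were lost.

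Several of the largest changes lie outside these lists. Krt79, an epithelial keratin, rose by 1.06 ± 0.12. Tmem86a, an enzyme of ether lipid breakdown, rose by 1.06 ± 0.10 and Tmem120a, a nuclear envelope protein that favours fat cell differentiation, by 0.96 ± 0.099. Chst11, a chondroitin sulfotransferase, rose by 1.00 ± 0.083, and Noct, a rhythmic phosphatase, by 0.98 ± 0.12. On the other side, Clec14a fell by 1.36 ± 0.11, the retinol dehydrogenase Rdh12 by 1.25 ± 0.16 and thrombomodulin, Thbd, by 1.17 ± 0.075. The growth factor Fgf7 (-1.19 ± 0.14), the prostaglandin receptor Ptgfr (-1.16 ± 0.10) and the transcription factor Trp63 (-1.09 ± 0.10) were lower too. Each of the 20 highest and 20 lowest genes passed under every alternative fit that held the gene. A filter on mean level, described below, removed dimmer genes, and fits without a 2 h or 12 h array were not counted.

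Of 303 microRNA genes measured, 14 passed (4.62%, under the 16.6% of all genes), 6 higher and 8 lower. The array reads the precursor or its host transcript, so these values are not levels of mature microRNA. Mir378a, which lies within an intron of the coactivator gene Ppargc1b, read 4.05, 4.20 and 3.93 untreated and 5.32, 5.49 and 5.41 at 6 h, far above (1.34 ± 0.15, adjusted p = 7.41e-07), and Ppargc1b rose by 0.88 ± 0.085. Mir148b rose by 0.63 ± 0.14 and Mir152 by 0.53 ± 0.16, and their mature forms share a seed, the bases 2 to 8 that pair with targets. Mir152 did not pass without 6 h array 2 or untreated array 2. Their host genes Copz1 and Copz2 differed by 0.076 and 0.20. Mir32 rose by 0.85 ± 0.27, a call lost without each of the 6 arrays in turn, and its host Tmem245 by 0.91. Untreated means were low for Mir148b (3.29) and Mir32 (2.80), with 4.72 for Mir152. Over the means of all genes, the median was 4.76 and the 10th percentile 2.63. Mir146b, known to be induced by NF-κB, fell from 3.85, 3.89 and 3.87 to 2.97, 2.97 and 3.07 (-0.86 ± 0.16, adjusted p = 0.000423). The number higher was 4 without 6 h array 2 or 3 or untreated array 3, and 3 without untreated array 2. Some of those were not among the 6, such as Mir452 without 6 h array 2. Mir378a and Mir148b among the increases and Mir146b and Mir375 among the decreases passed in each of these models. The mature sequences, from RefSeq (GRCm38.p6), are shown with the seed in capitals so that the shared seed can be seen: miR-148b-3p (chr15:103285185-103285206, plus strand), miR-152-3p (chr11:96850439-96850459, plus strand), miR-32-5p (chr4:56895272-56895293, minus strand) and miR-146b-5p (chr19:46342790-46342811, plus strand).
miR-148b-3p: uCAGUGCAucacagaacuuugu
miR-152-3p: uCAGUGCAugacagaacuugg
miR-32-5p: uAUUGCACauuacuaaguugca
miR-146b-5p: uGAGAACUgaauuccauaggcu

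The cells at 6 h were also set against those at 2 h and 12 h. The direct contrast of 6 h with 2 h changed 1720 genes (9.16%), 802 higher (4.27%) and 918 lower (4.89%), and that of 12 h with 6 h changed 220 (1.17%), 106 higher (0.564%) and 114 lower (0.607%). The first count was 1119 without 2 h array 1 and also without 2 h array 2. The second was 132 and 90 without 12 h arrays 2 and 3, and 57 and 54 without 6 h arrays 1 and 2.

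Several genes at the top of the first contrast had been low at 2 h and were near their untreated level at 6 h. Adm, the vessel-relaxing peptide adrenomedullin, was 1.26 ± 0.17 higher at 6 h than at 2 h (adjusted p = 1.94e-05), after -1.38 at 2 h, and stood at -0.12 against untreated at 6 h. The hyaluronan synthase Has2 (1.01 ± 0.12 over 2 h) and the AP-1 factor Fosl2 (0.93 ± 0.12) lay at -0.068 and 0.065 against untreated at 6 h. At the other end, the difference between 6 h and 2 h was -1.46 ± 0.20 for Nr4a1 and -1.64 ± 0.27 for Id2, and the potassium channel Kcnh4, which was 1.34 up at 2 h, stood at 0.095 at 6 h.

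Some genes passed in opposite directions at 2 h and 6 h, each against the same untreated arrays. Higher at 2 h and lower at 6 h were 7 genes, Bahcc1, Cirbp, Gper1, Id3, Kirrel, Lzts1 and Trim8, and lower and then higher were 10, Apln, Ccng2, Ffar4, Fgf10, Narf, Otub2, Pdxp, Rab3a, Rpia and Sap30, all listed after their values were seen. Fgf10 went from -0.36 at 2 h to 0.78 at 6 h, with a direct difference of 1.14 ± 0.082 (adjusted p = 6.58e-09). Ffar4, a receptor for long-chain fatty acids, went from -0.42 to 0.45, a difference of 0.86 ± 0.090. Gper1, a membrane oestrogen receptor, went from 0.52 to -0.53 (-1.05 ± 0.12, adjusted p = 1.55e-06). Without untreated array 1, the first group held 2 genes, Bahcc1 and Lzts1. It held 4 without 2 h array 1, 2 h array 2 or untreated array 3, and the second group held 6 without untreated array 2.

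A few genes peaked or dipped at 6 h among these times, being called against untreated, 2 h and 12 h in 1 direction, in 3 contrasts that share the 6 h arrays. The 8 peaks were Hsph1, Bop1, Srm, Ptprm, Get1, Mettl16, Polr1a and Noc3l. Hsph1, a chaperone of the HSP110 family, read 7.58, 7.46 and 7.50 untreated and 8.18, 8.20 and 8.05 at 6 h (0.63 ± 0.073), 0.69 ± 0.073 above 2 h and 0.43 above 12 h (adjusted p = 0.0037). Bop1, Noc3l and Polr1a serve the making of ribosomes, and Srm makes spermidine. They rose by 0.39 ± 0.081, 0.45 ± 0.062, 0.21 ± 0.060 and 0.31 ± 0.070. Hsph1 remained without each of the 12 arrays of these 4 groups. Ptprm was lost as a peak without each of them in turn, and Mettl16 stayed only without 12 h array 1 or untreated array 1 or 2. The number of peaks was 2 without 6 h array 1 or 2, 3 without 2 h array 1, 4 without 12 h array 3 and 5 without 2 h array 2 or 3. Without 6 h array 2, the peak beside Hsph1 was Fmr1os, which is not among the 8.

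The 11 troughs were Atf3, Lrrc8c, Tbx2, Ptpn13, Jund, Glis2, Garem1, Tlcd3b, Nrn1, Rap2a and Carmil1. Atf3, a stress factor, was -0.44 at 2 h, -0.92 at 6 h and -0.44 at 12 h against untreated. Lrrc8c, of the volume-regulated anion channel, was -0.004 at 2 h and -0.79 ± 0.087 at 6 h, then rose by 0.40 ± 0.087 to 12 h (adjusted p = 0.021). The transcription factors Glis2 and Tbx2 and the phosphatase Ptpn13 remained without each array in turn. Among the models without 1 array, Atf3 stayed a trough only without 12 h array 2 or untreated array 1, and Garem1 only without 6 h array 1. Lrrc8c was lost without 6 h array 1, 2 or 3 or 12 h array 2. The number of troughs was 4 without 6 h array 3, 5 without 6 h array 1 or 12 h array 3, 6 without 6 h array 2 and 7 without 2 h array 2. These counts include genes outside the 11: Hmox1 without 6 h array 1, Macrod2 without 6 h array 2 and E2f8 without 12 h array 3.

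**Figure D5:**
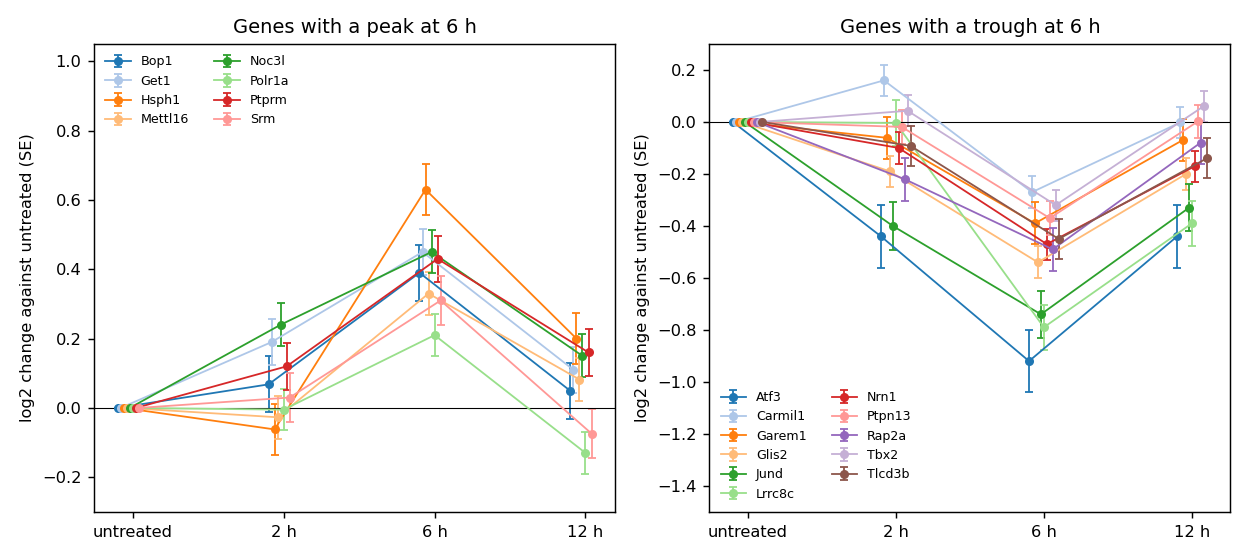
Log2 change against untreated at 2 h, 6 h and 12 h, with SE from the model (n = 3 arrays), for the 8 genes with a peak (left) and the 11 with a trough (right) at 6 h. Hsph1 has the highest peak, at 0.63, and Atf3 the deepest trough, at -0.92, which most models without 1 array did not keep as a trough. Lines only join the times of 1 gene.

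Between 6 h and 12 h, the genes that rose most were Elovl3 (1.01 ± 0.24) and Ndrg1 (0.83 ± 0.14), which had fallen by 6 h and was back at 0.017 against untreated at 12 h. Those that fell most were Orm2 (-1.01 ± 0.17), an acute-phase glycoprotein with a near-identical relative, and Cyp2f2 (-0.90 ± 0.093), a cytochrome that read 9.21, 9.25 and 9.13 untreated and 8.31, 8.47 and 8.27 at 6 h. Phkg1, a subunit of phosphorylase kinase, fell by 0.83 ± 0.12 after a change of -0.97 ± 0.12 at 6 h. At 2 h, Cyp2f2 and Phkg1 had differed from untreated by -0.089 and -0.090. Pck1 (0.16), Pfkfb3 (0.064), Angptl4 (-0.041) and Ccn1 (-0.11) did not pass between 6 h and 12 h.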

How the data were processed

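The authors deposited log2 intensities per probe set from Affymetrix Mouse Gene 1.1 ST arrays, made with Partek and RMA per the submitters' processing notes, with versions and order not given in the sources used here. The lowest value was 1.67 and the highest 13.19, medians per array were 4.02 to 4.13, and 0 arrays were identical. Of 28815 probe sets, 21153 carried 1 gene symbol, 1867 several and 5795 none, and the brightest was kept for 1367 genes with several, giving 18781 genes, without a filter on dim genes. Group means of all 27 arrays were fitted with limma 3.58.1 (R 4.3.3, lmFit and eBayes, 18 residual and 6.66 prior degrees of freedom), tested two-sided with Benjamini-Hochberg adjustment and tried on simulated data. Tables and plots used Python 3.11.15, pandas 2.3.3, numpy 2.4.6 and matplotlib 3.10.9. Arrays give no counts, and their number limits the precision.

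The comparison and its 38 gene lists (1042 entries, 85 not measured) were chosen with earlier results of these data known. Named are the 20 highest and 20 lowest genes whose arrays do not overlap, in each list up to 6 members of smallest p and others where a group is described, the 10 highest and lowest against 2 h and from 6 h to 12 h, up to 8 peaks and troughs, and a panel of known genes. MicroRNA genes, Nrn1, Rap2a, Carmil1 and genes of opposite direction were named after their values were seen. Alternatives were a replicate block, a filter keeping genes whose mean exceeded the median (4.76), averaged probe sets, centring, a further quantile normalization, trended and robust variance, array weights, a 1.5-fold minimum, the 6 arrays alone, 30 min as baseline, and leaving out arrays.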

Additional observations from a re-analysis of the deposited data

Results flagged for a closer look

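Of the genes that passed against untreated, 2 h and 12 h in 1 direction, 8 had a peak and 11 a trough at 6 h, in contrasts that share the 6 h arrays. The smaller of the differences from 2 h and 12 h was 0.43 for Hsph1, 0.32 for Bop1, 0.28 for Srm, 0.27 for Ptprm, 0.25 for Get1 and for Mettl16, and 0.21 for Polr1a and for Noc3l. Among the troughs it was 0.48 for Atf3, 0.40 for Lrrc8c, 0.37 for Tbx2, 0.36 for Ptpn13, 0.34 for Jund, 0.33 for Glis2, 0.32 for Garem1 and 0.31 for Tlcd3b. The call for Polr1a at 6 h was lost under 8 alternatives. Ptprm was not a peak in any model without 1 array, and Atf3 and Garem1 were not troughs in most of them. Higher at 2 h and lower at 6 h were 7 genes, and lower at 2 h and higher at 6 h were 10, each also called in the direct contrast of the 2 times.

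Probe sets outside the named genes held signal too. Of 5795 probe sets without a gene symbol, 268 passed at 6 h (4.62%), and of 1867 with several symbols, 198 passed (10.6%), beside 14.7% of those with 1 symbol.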

How the results depend on the processing

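Of 383 named or listed genes that passed at 6 h, 193 passed under every alternative fit that held the gene. The 1.5-fold minimum and the fits without a 2 h or 12 h array were not counted. Genes removed by the filter on the mean were not tested under it. With the 30 min arrays as baseline, 5 named genes changed direction: Angptl8 (0.39), Fzd5 (-0.063), Mcm5 (-0.35), Mir184 (0.026) and Rasl11b (-0.50), and the cause was not tested. Centring gave 2877 genes higher and 883 lower. The 1.5-fold minimum left 385 genes at 6 h, 153 higher and 232 lower, 166 against 2 h and 23 from 6 h to 12 h. From 6 h to 12 h, 382 genes passed among those above the median mean, where fewer genes are tested, and 56 in a model of the 6 arrays alone, which has fewer samples.

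Leaving out a replicate number in every group gave 1503 to 2310 genes at 6 h (644 to 1203 higher, 775 to 1107 lower), 587 to 962 against 2 h and 11 to 57 from 6 h to 12 h. Leaving out 1 array gave 2388 to 2591 (1151 to 1355 higher, 1080 to 1319 lower), 1119 to 1380 and 54 to 162. Deviations of same-numbered untreated and 6 h arrays correlated at -0.12, 0.034 and -0.048, beside -0.16 to 0.19 for other numbers. With 3 arrays a group these values are few and not independent. They cannot settle whether the replicate numbers pair the samples. With the replicate block, 2655 genes passed at 6 h, 1350 higher and 1305 lower, 1344 against 2 h and 116 from 6 h to 12 h. The other alternatives kept each count within 1.5 times. With a median SE of 0.088, small changes were beyond the reach of 3 arrays a group.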
